A study of Mus musculus with 3 samples.

Results

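Neutrophil-committed progenitors with high Elane were examined in bone marrow nucleated cells (BMNCs) of mice at 14 days post-irradiation (DPI). A cell counted as an Elane-high cell where it held at least 10 Elane UMIs and 10 Mpo UMIs, no Cd34 UMI, no F13a1 UMI and at most 9 Fcnb UMIs, among cells with at least 200 genes and at most 5% UMIs of mitochondrial genes. A UMI, or unique molecular identifier, stands for 1 captured RNA molecule. The limits chose 675 of 31292 kept cells, with 147 in the Control library, 171 in the IR library and 357 in the IR+CBD library.

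The Control library came from C57BL/6 mice without irradiation, the IR library from mice given 6.0 Gy of Cobalt-60 radiation and solvent, and the IR+CBD library from mice given 6.0 Gy and cannabidiol (CBD), a compound of the hemp plant. The solvent was soybean oil with DMSO, and CBD was injected 4 times at 50 mg/kg, at 12 h and 0.5 h before and at 12 h and 24 h after irradiation. The methods name male mice, and an age for them is not given in the sources used here. In each group, cells of 3 mice were pooled into 1 droplet library after Lin-Kit+, Lin-Kit- and Lin+ cells had been sorted and remixed at 5:4:1, so that shares refer to this mix and not to marrow. Because each condition was 1 library, no test between conditions was possible, and all intervals are 95% intervals that cover counting error only.

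Neutrophils arise from granulocyte-monocyte progenitors that first lose the stem and progenitor protein CD34 and then fill their first granules. These primary, or azurophil, granules carry myeloperoxidase (Mpo) and the serine proteases neutrophil elastase (Elane), proteinase 3 (Prtn3) and cathepsin G (Ctsg), and they are made at the promyelocyte stage. The transcription factors PU.1 (Spi1), C/EBPα, C/EBPε and Gfi1 act in this lineage, whereas Irf8 and the receptor Csf1r belong to the monocyte branch and F13a1 marks monocyte progenitors. Ficolin-B (Fcnb) and then lactoferrin (Ltf), cathelicidin (Camp) and Ngp come with the later, secondary granules. The rule thus kept cells with primary granule transcripts after Cd34 and before high Fcnb.

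The promoters of Elane and Mpo, which the rule reads, and of Prtn3, another marker that it does not read, are shown first, because they hold the same short motif. The sequences are the 250 bases before the RefSeq gene start in GRCm38.p6, 5′ to 3′, and the capitals mark GAGGAAGT, a purine-rich core of the type that PU.1 and other ETS factors bind.
Elane, chr10:79886062-79886311, plus strand: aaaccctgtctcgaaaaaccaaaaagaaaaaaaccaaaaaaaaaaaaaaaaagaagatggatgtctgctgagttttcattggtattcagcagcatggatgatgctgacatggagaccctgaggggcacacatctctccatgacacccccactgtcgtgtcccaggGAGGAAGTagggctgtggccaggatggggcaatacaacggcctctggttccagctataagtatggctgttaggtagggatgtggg
Prtn3, chr10:79879417-79879666, plus strand: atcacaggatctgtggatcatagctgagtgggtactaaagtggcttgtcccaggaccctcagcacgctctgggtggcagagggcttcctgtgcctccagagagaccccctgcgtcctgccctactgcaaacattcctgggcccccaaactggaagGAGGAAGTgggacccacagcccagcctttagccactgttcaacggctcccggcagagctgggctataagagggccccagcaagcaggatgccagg
Mpo, chr11:87793534-87793783, plus strand: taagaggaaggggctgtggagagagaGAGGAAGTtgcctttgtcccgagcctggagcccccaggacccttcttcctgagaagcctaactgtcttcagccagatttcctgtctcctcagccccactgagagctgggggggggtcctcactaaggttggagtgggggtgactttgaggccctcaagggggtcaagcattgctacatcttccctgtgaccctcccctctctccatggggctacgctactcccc
The first base of the motif lay 85 bases before the start in Elane, 95 in Prtn3 and 224 in Mpo, and Elane and Prtn3 are neighbours on chromosome 10. Searched on both strands, these letters occurred in 802 of 32851 RefSeq promoters (2.44%), which belong to 27025 gene symbols. They also occurred in 4 of the 14 primary granule genes that had a promoter sequence. A listed gene counted once where any of its promoters held the letters. A match is a description of letters and was not tested as a binding site.

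Some of the interferon-inducible genes described further on carry another motif, and the promoters of Isg15, Bst2 and B2m are shown because they hold it. The capitals mark the letters GAAA, any 2 bases and GAAA again, a core of the interferon-stimulated response element that factors of the interferon pathway bind, and overlapping copies run together.
Isg15, chr4:156200819-156201068, minus strand: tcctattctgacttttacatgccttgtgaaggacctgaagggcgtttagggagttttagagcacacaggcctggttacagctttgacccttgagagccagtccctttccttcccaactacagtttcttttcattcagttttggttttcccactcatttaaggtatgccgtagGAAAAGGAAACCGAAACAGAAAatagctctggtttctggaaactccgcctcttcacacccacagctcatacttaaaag
Bst2, chr8:71537473-71537722, minus strand: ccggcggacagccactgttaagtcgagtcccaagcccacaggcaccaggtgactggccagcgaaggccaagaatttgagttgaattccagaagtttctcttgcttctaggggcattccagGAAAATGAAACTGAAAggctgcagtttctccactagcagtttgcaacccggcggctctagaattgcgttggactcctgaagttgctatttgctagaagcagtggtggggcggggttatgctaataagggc
B2m, chr2:122147437-122147686, plus strand: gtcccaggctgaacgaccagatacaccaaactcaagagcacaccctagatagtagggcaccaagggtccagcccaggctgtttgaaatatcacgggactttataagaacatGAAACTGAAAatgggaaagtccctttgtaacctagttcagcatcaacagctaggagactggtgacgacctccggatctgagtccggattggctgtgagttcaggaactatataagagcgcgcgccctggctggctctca
Isg15 held 3 overlapping copies, Bst2 held 2 and B2m, which encodes β2-microglobulin, held 1. Of the other genes described below, Trim30a held the motif. Ifi35, Ifi47, Ifitm1, Ifitm3, H2-K1, H2-D1, H2-Q7 and Tap1 did not hold it in this window, and Ifi27 and Ifi27l2a had no promoter sequence. Of the 70 interferon-response genes found in the data, 53 had a promoter sequence and 29 of these (54.7%) held the motif, against 978 of all 32851 promoters (2.98%). Here too listed genes were counted by symbol and the background by promoter, so the 2 percentages are not of the same unit. Of the MHC class I genes with a sequence, 3 of 18 held it, and the promoters of Elane, Prtn3 and Mpo did not hold these letters in this window.

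The neutrophil label was then checked in genes that the rule did not read. Where 3 values stand together they are in the order Control, IR and IR+CBD. Summed over the cells, Prtn3 stood at 12780 CPM (UMIs per 1000000 UMIs) in Control, 14025 CPM in IR and 14221 CPM in IR+CBD, and Ctsg at 7923, 8594 and 8756 CPM. B-lineage cells, which should lack these genes and which held at least 5 UMIs each of Cd79a and Cd79b, gave 1432, 905 and 773 CPM of Prtn3. Per cell, the median Prtn3 count was 324, 317 and 251 UMIs. Thus both genes were at a high level in all 3 libraries. Cells that held 1 F13a1 UMI and met the other limits had near levels of both. Their Prtn3 stood at 13357, 14283 and 13167 CPM and their Ctsg at 8242, 8874 and 8029 CPM. Prtn3 and Ctsg thus did not set the chosen cells apart from these neighbours, and do not check the neutrophil label against them.

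Cebpe, which encodes C/EBPε, and Gfi1 were also detected. With each cell thinned to 5000 UMIs, Cebpe had a UMI in 58.3%, 56.0% and 61.5% of the Elane-high cells, and Gfi1 in 28.1% to 32.7%. Csf3r, the receptor of the neutrophil growth factor G-CSF, had one in 20.1%, 26.2% and 24.2%. The monocyte factor Irf8 had a UMI in 2.88%, 3.57% and 1.75% of thinned cells, and Csf1r in 2.16%, 1.19% and 1.17%. The share for Csf1r in B-lineage cells was 2.57%, 1.95% and 1.85%, so that Csf1r was at background.

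The rule also took in some cells with RNA of other lineages. The sum of Elane, Mpo and Prtn3 had a median of 28804 CPM per Control cell, 33177 CPM per IR cell and 33048 CPM per IR+CBD cell, but the lowest cells stood at 6508, 4933 and 3883 CPM. In all, 138 Control, 161 IR and 335 IR+CBD cells reached 15000 CPM, which is between 93.8% and 94.2% of each library. At least 10 UMIs of Car1 or Car2, carbonic anhydrases of erythroid and other early cells, occurred in 0 Control, 6 IR and 24 IR+CBD cells, and at least 10 UMIs of the eosinophil genes Prg2 or Epx in 0, 3 and 2 cells. Any of the 7 lineage pairs or genes examined was seen at that level in 18, 22 and 46 cells, and 7, 8 and 17 of these were below the 15000 CPM limit. Some lists of markers of other cells stood low: 17 B-cell markers summed to 242, 284 and 227 CPM against 16466 to 19533 CPM in B-lineage cells, and 14 T and NK markers to 6.33, 3.52 and 11.9 CPM with 8, 10 and 8 of them at 0. Others did not stand low in the irradiated libraries. The eosinophil gene Prg2 alone was at 4.48, 1011 and 159 CPM, and the erythroid markers, also higher in IR and IR+CBD, are taken up below. The 20 monocyte markers summed to 784, 1049 and 921 CPM, below the 1497 to 1572 CPM in B-lineage cells. Scrublet called 15 Control, 17 IR and 40 IR+CBD cells doublets, and they were kept.

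Elane-high cells held fewer UMIs each in IR+CBD. The median was 23910 UMIs and 4965 genes per cell in Control, 21711 UMIs and 4657 genes in IR and 16998 UMIs and 4024 genes in IR+CBD. Thinned to 5000 UMIs, the median number of genes was 2010, 2027 and 1949. The cells' summed depth was 3791051, 3691295 and 6235171 UMIs, and all kept cells together held between 173466089 and 202361682 UMIs per library. Between 26 and 34 barcodes were shared by the kept cells of any pair of libraries, and no barcode was an Elane-high cell in 2 libraries.

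The limits cut through a continuum. Just inside the Elane limit, 6 Control, 1 IR and 6 IR+CBD cells held 10 to 12 Elane UMIs, and just outside it 6, 3 and 4 cells that met the other limits held 7 to 9. With 1 Cd34 UMI, 63 Control, 59 IR and 97 IR+CBD cells stood just outside. With 1 F13a1 UMI there were 66, 87 and 166, and their Prtn3 level of 13357, 14283 and 13167 CPM was near that of the chosen cells. Chosen cells with 7 to 9 Fcnb UMIs numbered 7, 9 and 9, and 6, 7 and 13 cells held 10 to 12.

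Elane-high cells made up 1.38% of the Control cells (interval 1.16 to 1.62%), 1.65% of the IR cells (1.42 to 1.92%) and 3.48% of the IR+CBD cells (3.13 to 3.85%). The IR+CBD share was 2.10 times that of IR (1.76 to 2.52) and 2.52 times that of Control (2.09 to 3.05). The IR share was 1.20 times the Control share (0.964 to 1.49), an interval that includes 1. Of the cells with at least 10 Mpo UMIs, they were 5.09%, 6.19% and 11.4%, and for each Cd34-positive cell of the same compartment there were 0.211, 0.329 and 0.636 Elane-high cells.

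Elane-high cells held fewer UMIs each where these shares were higher. A limit of 0 Cd34 and 0 F13a1 UMIs depends on the UMIs per cell by its construction. Over all kept cells, the median was 12479.5, 14211 and 12502 UMIs, so that IR+CBD was not below Control there. The cause of the lower count in Elane-high cells was not tested. Cells with at least 10 UMIs each of Elane and Mpo and at most 9 of Fcnb, whatever their Cd34 and F13a1, numbered 2083, 2255 and 2539, with a median depth of 38601, 31290 and 24855 UMIs. Of these, 24.2%, 26.0% and 39.8% had no Cd34 UMI and 21.8%, 20.8% and 27.0% no F13a1 UMI. Their Cd34 level was between 91.8 and 104 CPM, their F13a1 level 362, 371 and 341 CPM and their Elane level 3886, 4219 and 5236 CPM. The part of depth in the shares was not tested apart from the thinning below.

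The shares were therefore also taken at equal depth. With every cell thinned to 5000 UMIs and limits of 5 Elane, 5 Mpo and at most 4 Fcnb UMIs, 8.02%, 8.80% and 12.1% of cells met the rule (632 of 7876, 645 of 7328 and 892 of 7371), which left out 2798, 3017 and 2902 shallower cells. The share of IR+CBD was then 1.37 times that of IR and 1.51 times that of Control. Thinned to 10000 UMIs with the original limits, the shares were 6.62%, 5.71% and 9.24%, which put IR+CBD at 1.62 times IR and 1.39 times Control, and IR at 0.863 times Control. At this depth 4634, 4360 and 4492 cells were left out, 68 of them Elane-high cells of IR+CBD. Thinning also let in cells that failed the rule at full depth. Of the cells that met the rule at 5000 UMIs, 137, 163 and 334 were Elane-high cells at full depth. At 10000 UMIs these were 129 of 400, 149 of 342 and 286 of 534. Among the thinned cells past the Elane, Mpo and Fcnb limits, those that met the whole rule were 35.3%, 32.6% and 38.4% at 5000 UMIs and 22.9%, 17.7% and 24.5% at 10000 UMIs, against 7.06%, 7.58% and 14.1% at full depth. The libraries lay closer together on that denominator once thinned. Of all cells, IR+CBD had the highest share at each depth, while the order of Control and IR changed.

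**Figure D1:**
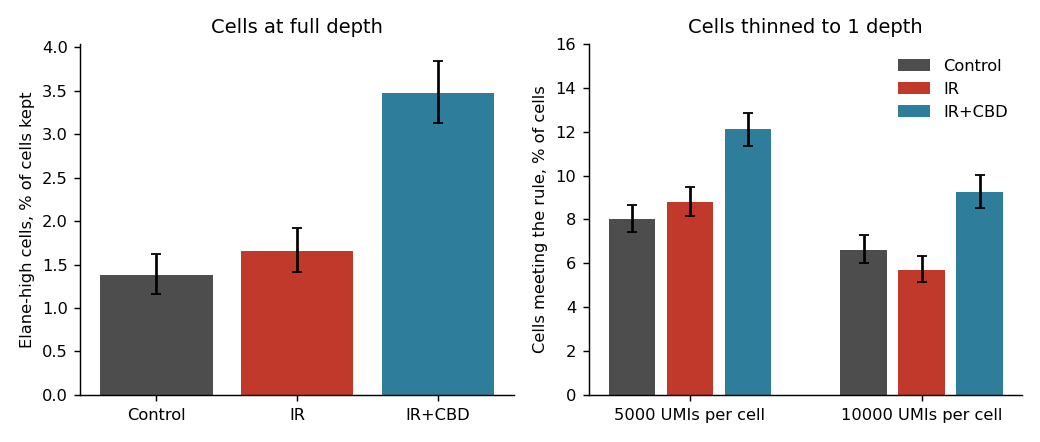
Share of cells that met the Elane-high limits in the Control, IR and IR+CBD libraries, in percent, for all kept cells at full depth (left) and for cells thinned to 5000 and to 10000 UMIs (right), with exact 95% intervals as error bars. IR+CBD is highest at each depth (3.48%, 12.1% and 9.24%), and its ratio to IR is 2.10 at full depth, 1.37 at 5000 UMIs and 1.62 at 10000 UMIs. The thinned bars include cells that were not Elane-high cells at full depth, and the limits at 5000 UMIs were lower.

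Genes were compared between libraries by the ratio of their CPM over all Elane-high cells, and a gene counted as higher or lower where it had at least 200 UMIs in the 2 libraries and a ratio of at least 1.5 in either direction. In IR over Control, 50 of 4813 genes were higher (1.04%) and 41 lower (0.852%). In IR+CBD over IR, 28 of 5646 were higher (0.496%) and 39 lower (0.691%), and in IR+CBD over Control 52 of 5677 were higher (0.916%) and 46 lower (0.81%). The median log2 ratio of all these genes was -0.02, -0.03 and -0.05. Scaling by the median of ratios gave 35 higher and 35 lower for IR+CBD over IR and 71 higher and 30 lower for IR+CBD over Control.

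The enzymes and other contents of primary granules were at near levels in the 3 libraries. Their 16 genes summed to 45768 CPM in Control, 51530 CPM in IR and 51263 CPM in IR+CBD. Of 14 with enough UMIs, 1 passed the fold upward and 0 downward in IR over Control, and 0 passed it either way in IR+CBD over IR. The gene that passed was Lyz2, which encodes lysozyme M. Lyz2 stood at 95.5, 160 and 149 CPM, a ratio of 1.67 in IR over Control (1.46 to 1.91), but B-lineage cells held 386 to 455 CPM of it, and the mean of each cell's own CPM gave 0.957.

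Elane, part of the rule, stood at 8599 CPM in Control, 10055 CPM in IR and 9811 CPM in IR+CBD, and Mpo at 6151, 7149 and 6928 CPM. Elane counts per cell ran from 10 to 524 UMIs in Control, from 11 to 616 in IR and from 11 to 561 in IR+CBD, with medians of 239, 218 and 180. The libraries overlapped widely, as the plot of UMIs per cell shows. Serglycin (Srgn), the proteoglycan that packs granule proteases, stood at 4417, 5363 and 5445 CPM, with an IR over Control ratio of 1.21 (1.19 to 1.24). Ms4a3, a membrane protein of granulocyte-monocyte progenitors, was at 2884, 2872 and 2794 CPM, and the serine protease Prss57 at 376, 393 and 410 CPM. The granule membrane protein Nkg7 was at 1192, 1478 and 1381 CPM.

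**Figure D2:**
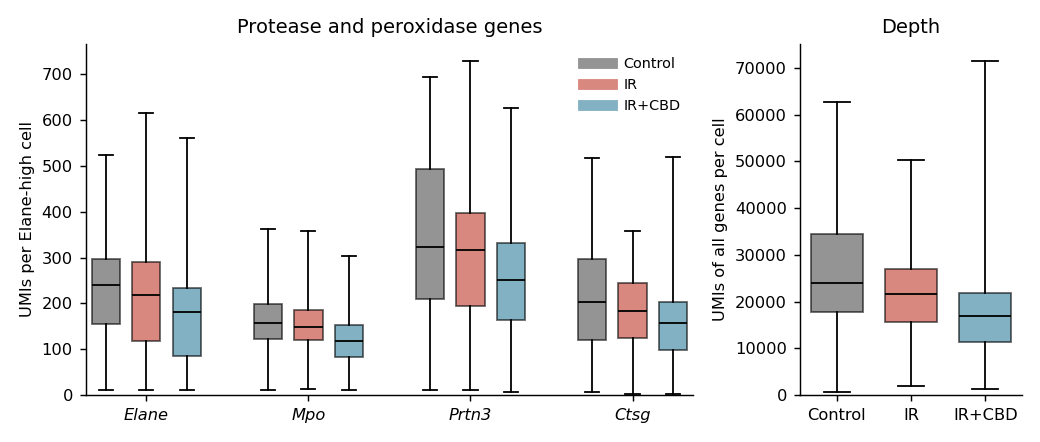
UMIs per Elane-high cell of Elane, Mpo, Prtn3 and Ctsg (left) and of all genes (right) in the 3 libraries, where boxes give the quartiles, lines the median and whiskers the lowest and highest cell. The libraries overlap over most of their range, and the medians of Prtn3 (324, 317 and 251 UMIs) follow the order of the depth (23910, 21711 and 16998 UMIs).

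Protease inhibitors and heme enzymes serve the same granules. Serpinb1a, which inhibits elastase, proteinase 3 and cathepsin G, stood at 796 CPM in Control, 899 CPM in IR and 891 CPM in IR+CBD. Slpi, the secretory leukocyte protease inhibitor, was at 149, 244 and 225 CPM, with ratios of 1.63 for IR over Control (1.47 to 1.82) and 0.925 for IR+CBD over IR (0.850 to 1.01). Slpi was the 1 inhibitor of 3 with enough UMIs past the fold. B-lineage cells held 111, 81.1 and 74.0 CPM of Slpi.

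Alas1, the first enzyme of heme synthesis outside red cells, was at 473, 496 and 446 CPM. Of 9 heme genes with enough UMIs, 3 passed the fold upward in IR over Control, Alad, Abcb10 and Blvrb, but Alad was at 1.1 among cells with 15000 CPM of the granule genes and Abcb10 at 1.03 when cells were thinned to 5000 UMIs. The median log2 ratio of the list was 0.34, and 0.04 among those cells with 15000 CPM. Abcb10, a mitochondrial transporter, stood at 34.3, 53.9 and 34.2 CPM, and its IR+CBD over IR ratio of 0.634 also became 1.01 when thinned. Blvrb, biliverdin reductase B, is also an erythroid gene and is taken up with those genes below.

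Few transcription factors of the granulocyte lineage passed the fold. Of 14 with enough UMIs, 0 passed it in either direction in IR over Control. Of all genes tested there, 1.04% were higher and 0.852% lower, so that the count of factors was near the share over all genes. In IR+CBD over IR 1 of 16 passed upward (Zbtb16, 17.3 against 26.3 CPM) and in IR+CBD over Control 1 of 17 passed upward (Per3, 19.3 against 30.8 CPM). Cebpe was at 183 CPM in Control, 180 CPM in IR and 196 CPM in IR+CBD, and the IR+CBD over IR ratio was 1.09 (0.990 to 1.20). Gfi1, a repressor of the monocyte program, was at 75.7, 88.9 and 86.9 CPM. Spi1, which encodes PU.1, was at 257, 235 and 217 CPM, and Cebpa at 50.6, 44.4 and 38.8 CPM. Myc, a driver of cell growth, was at 55.1, 76.9 and 64.0 CPM, with an IR over Control ratio of 1.40 (1.16 to 1.68).

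Among growth factor receptors, Csf3r was at 53.8 CPM in Control, 53.6 CPM in IR and 54.7 CPM in IR+CBD, and the interval of its IR+CBD over IR ratio ran from 0.853 to 1.22. Kit, the stem cell factor receptor that the sort used, was at 64.1, 57.7 and 56.6 CPM, and Csf2ra, the α chain of the GM-CSF receptor, at 80.5, 92.1 and 86.8 CPM. Csf2rb, the β chain it shares with the IL-3 and IL-5 receptors, was the 1 of 6 receptors below the fold in IR over Control, at 38.5, 24.9 and 24.2 CPM (ratio 0.647, 0.493 to 0.846), and 5 of the other settings put that ratio inside the fold, from 0.682 to 0.737.

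Interferon-response genes stood higher in IR than in either other library. The 70 genes found summed to 1255 CPM in Control, 2121 CPM in IR and 1132 CPM in IR+CBD. Of 11 with enough UMIs in IR and Control, 6 were past the fold upward and 1 downward, with a median log2 ratio of 0.67. In IR+CBD over IR, 8 of 14 were past it downward and 1 upward, with a median log2 ratio of -0.89. In IR+CBD over Control, 0 of 10 were past it upward and 1 downward, with a median of -0.10. Isg15 reached the UMI minimum mainly through IR, with 23 UMIs in Control and 182 in IR, so that the counts of genes past the fold depend on IR being high, while the sums cover all genes found.

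Isg15, a ubiquitin-like protein that interferon induces, stood at 6.07 CPM in Control, 49.3 CPM in IR and 9.30 CPM in IR+CBD. A UMI was seen in 20 of 147, 79 of 171 and 46 of 357 cells. The ratio was 8.13 for IR over Control (5.25 to 13.1) and 0.189 for IR+CBD over IR (0.138 to 0.255). At 5000 UMIs per cell, 3.60%, 15.5% and 2.33% of cells had an Isg15 UMI. IR was thus highest by level and by share.

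Ifi27, which encodes a mitochondrial protein, was at 49.1, 238 and 62.4 CPM, with ratios of 4.85 (4.13 to 5.71) and 0.262 (0.232 to 0.296). Bst2, the virion tether tetherin, was at 124, 278 and 131 CPM, with ratios of 2.24 (2.01 to 2.50) and 0.471 (0.429 to 0.517). Ifi27l2a was at 3.17, 47.1 and 4.33 CPM, below the UMI minimum for IR over Control and at 0.0919 in IR+CBD over IR (0.0589 to 0.138), and 42 of the 171 IR cells held a UMI against 10 and 9 in Control and IR+CBD. B-lineage cells held 1736 CPM of Ifi27l2a in IR, and the part of free RNA in the value of the Elane-high cells was not tested. The other genes past the fold in IR over Control, named after their values were seen, were Ifi35, Ifi47 and Trim30a, and Trim30a stood at 23.2, 43.6 and 22.1 CPM.

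Genes of the Ifitm family, which block virus entry, went different ways. Ifitm1 was lower in IR, at 175 CPM in Control, 52.0 CPM in IR and 118 CPM in IR+CBD, with ratios of 0.298 (0.252 to 0.350) and 2.28 (1.94 to 2.68). Of the 11 genes with enough UMIs it was the 1 with a ratio under 1 in IR over Control. Ifitm3 was at 181, 263 and 112 CPM, with ratios of 1.45 (1.32 to 1.60) and 0.425 (0.385 to 0.468). Thinned to 10000 UMIs, the Ifitm1 ratio of IR+CBD over IR was 1.38, under the fold.

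The same direction was seen outside the Elane-high cells. In all other cells, 69 interferon genes had enough UMIs, with a median log2 ratio of 1.21 in IR over Control and of -1.05 in IR+CBD over IR. No count past the fold is given for them, since the share over all genes was not taken in these cells. They are a mix of cell types whose make-up was not held equal between libraries. The summed list was 2414 CPM in B-lineage cells of Control, 5058 CPM in IR and 2326 CPM in IR+CBD. The difference of the ratios between Elane-high and other cells was not tested.

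MHC class I genes, which present peptides and which interferon also induces, were also highest in IR, by smaller ratios, with IR+CBD between IR and Control in their sum. The list summed to 2864 CPM in Control, 4229 CPM in IR and 3271 CPM in IR+CBD. All 14 genes with enough UMIs had a ratio over 1 in IR over Control (median log2 0.33, 5 past the fold), and all 14 a ratio under 1 in IR+CBD over IR (median -0.32, 1 past the fold). Genes at low Control levels, such as H2-Q7 and Tap1, reached the UMI minimum mainly through IR. The counts thus depend in part on IR being high, while the sum covers all genes found. B2m was at 544, 933 and 698 CPM, with ratios of 1.71 (1.62 to 1.81) and 0.748 (0.715 to 0.782). The heavy chain H2-K1 was at 444, 779 and 581 CPM, and H2-D1 at 458, 726 and 544 CPM. H2-Q7, a nonclassical heavy chain whose sequence is close to that of other Q genes, was at 22.2, 92.4 and 40.9 CPM, with ratios of 4.17 (3.27 to 5.36) and 0.443 (0.375 to 0.522), and reads shared with its paralogs make that value uncertain. The peptide transporter Tap1 was at 23.2, 40.9 and 31.1 CPM. B2m and H2-K1 in IR+CBD were above Control, by 1.28 times (1.22 to 1.35) and 1.31 times (1.24 to 1.39).

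**Figure D3:**
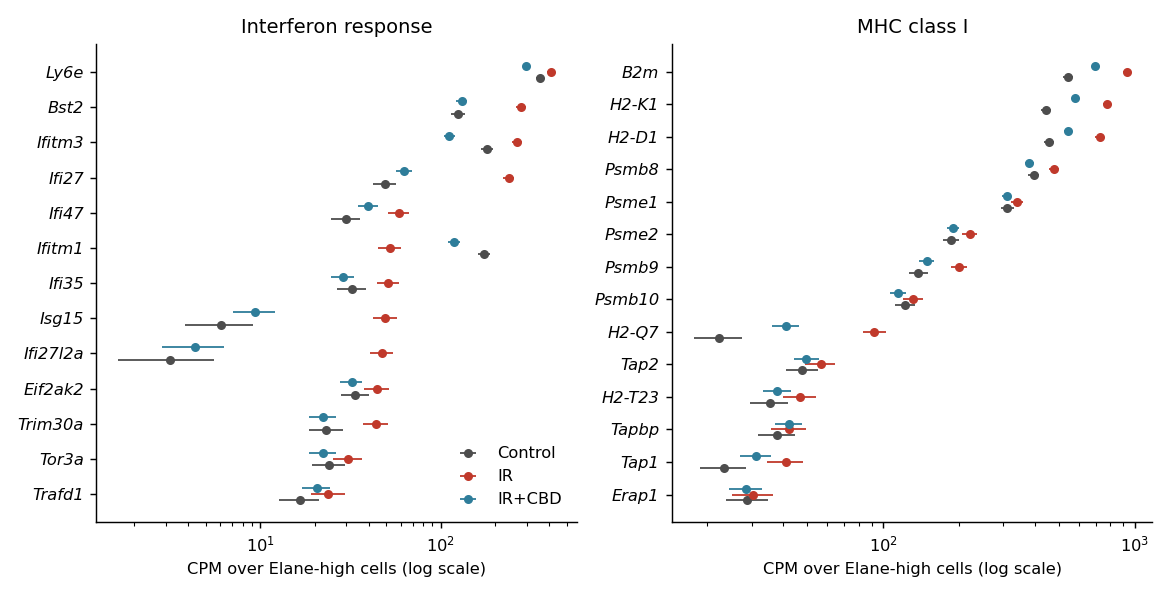
CPM of interferon-response genes (left) and MHC class I genes (right) over all Elane-high cells of each library, on a log axis, with exact Poisson 95% intervals as bars. IR lies above Control and IR+CBD for Isg15 (49.3 CPM against 6.07 and 9.30) and for B2m (933 CPM against 544 and 698), and below both for Ifitm1.

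Several other genes far from 1 were spread over many cells. Cxcl10, an interferon-inducible chemokine, went against the interferon genes, at 126 CPM in Control, 51.5 CPM in IR and 173 CPM in IR+CBD, with a UMI in 56, 39 and 166 cells. Its ratio was 0.410 for IR over Control (0.345 to 0.486) and 3.37 for IR+CBD over IR (2.88 to 3.95). With cells thinned to 5000 UMIs these were 0.757, under the fold, and 2.33. B-lineage cells held 12.2 to 24.5 CPM of Cxcl10, below every library of Elane-high cells. Vcam1, an adhesion receptor, was at 63.8, 33.3 and 64.8 CPM, with ratios of 0.522 (0.417 to 0.651) and 1.94 (1.59 to 2.40), and was at 3.20 CPM or less in B-lineage cells. Thinned to 5000 UMIs, IR over Control was 0.713 for Vcam1, under the fold.

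The metallothionein Mt2 was at 6.07 CPM in Control, 24.1 CPM in IR and 53.9 CPM in IR+CBD, and B-lineage cells held 11.8, 47.7 and 58.1 CPM. Mt2 thus moved in both kinds of cell. The fatty acid binding protein Fabp5 was lower in both irradiated libraries, at 124, 67.2 and 63.2 CPM, and IR over Control was 0.543 (0.464 to 0.635), and 0.799 with cells thinned to 5000 UMIs. Among the genes with the lowest ratios were 3 histone genes, which were named for that and stand for no list. H2ac24 was at 478, 287 and 267 CPM, H3c3 at 57.5, 33.9 and 29.7 CPM and H2ac20 at 68.3, 34.1 and 38.5 CPM. B-lineage cells held 871, 638 and 589 CPM of H2ac24, so that it was lower in irradiated libraries there too. Gm47283, a gene without a described function, was at 355, 183 and 196 CPM.

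The largest ratios came from a few cells. Prg2, an eosinophil granule protein, had 17, 3733 and 992 UMIs, but 1546 and 1220 of the IR UMIs were in 2 cells and 922 of the IR+CBD UMIs in 1 cell. Among cells with at least 15000 CPM of Elane, Mpo and Prtn3, the Prg2 ratio of IR over Control was 0.851, against 226 in all. The globin Hbb-bs had 912 UMIs in IR, 874 of them in 1 cell, and Hba-a1 555 of 570 in 1 cell. The platelet chemokine Pf4 had 153 of 168 Control UMIs in 1 cell and 189 of 193 IR UMIs in 1 cell. These values describe single cells.

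Car1 and Car2 were less concentrated. Car1 had 28, 438 and 1269 UMIs, or 7.39, 119 and 204 CPM, and Car2 28.8, 147 and 203 CPM. In the cells with at least 15000 CPM of the granule genes the Car1 ratio was 10.6 for IR+CBD over Control and 1.94 for IR over Control, against 27.6 and 16.1 in all. Blvrb was at 13.2, 77.2 and 88.7 CPM. The 18 erythroid markers summed to 112, 1053 and 660 CPM, of which Hbb-bs, Hbb-bt and Hba-a1 held 247, 121 and 154 CPM in IR, and no count of them past the fold is given, since the globins reached the UMI minimum through IR alone. The mast cell protease Cpa3 was lower in both irradiated libraries, at 112, 42.8 and 37.8 CPM, with 142 of its 423 Control UMIs in 1 cell. Slc25a21, S100a6 and Retnlg were likewise carried by few cells, and Retnlg had 198 of its 503 Control UMIs in 1 cell.

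Secondary and tertiary granule genes are the next to be made in this lineage. The list of 26 genes also holds S100a8 and S100a9, whose product calprotectin lies mainly in the cytosol. It summed to 11299 CPM in Control, 11228 CPM in IR and 15743 CPM in IR+CBD, and S100a8 and S100a9 held most of each sum. Of 16 genes with enough UMIs, 3 were past the fold upward in IR+CBD over IR (S100a8, S100a9 and Retnlg) and 1 downward (Chil3). B-lineage cells held 11890, 10616 and 12938 CPM of the same list, so that it was also found in cells that should lack it, and the part of free RNA in the sums was not tested. S100a8, a subunit of calprotectin, was at 4901, 4689 and 7123 CPM, and IR+CBD over IR was 1.52 (1.49 to 1.55). Its partner S100a9 was at 3096, 2769 and 4362 CPM, and that ratio was 1.58 (1.54 to 1.61). B-lineage sums of S100a9 were 4505, 4123 and 5063 CPM, above those of Elane-high cells.

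Genes of this list fell into a group above and a group below B-lineage cells. Haptoglobin (Hp) was at 495, 617 and 608 CPM against 121, 90.9 and 87.0 CPM in B-lineage cells, and the peptidoglycan binder Pglyrp1 at 395, 440 and 500 CPM against 92.3, 82.5 and 106 CPM. Wfdc21 was at 478, 499 and 671 CPM against 147, 115 and 152 CPM. By contrast Camp was at 343, 491 and 462 CPM against 773, 735 and 763 CPM, and Ngp at 223, 316 and 330 CPM against 713, 668 and 845 CPM. Lcn2 was at 194, 232 and 323 CPM against 433, 397 and 466 CPM. These 3 genes were thus below the B-lineage level in CPM. At 5000 UMIs per cell, Camp had a UMI in 20.1%, 15.5% and 19.5% of Elane-high cells and in 17.5%, 13.6% and 14.9% of B-lineage cells, and Ngp in 19.4%, 20.2% and 17.5% against 16.6%, 13.7% and 14.0%. No difference between libraries is read from Camp, Ngp or Lcn2, whose IR over Control ratios lay on both sides of 1 under other settings (0.562 to 1.94 for Camp).

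The remaining programs showed few genes past the fold, and so did all genes tested, of which 1.04% were higher and 0.852% lower in IR over Control. Of the 39 genes with enough UMIs for folding in the endoplasmic reticulum, where granule proteins are made, 0 passed it in any of the 3 comparisons, and the list summed to 17276, 17526 and 16751 CPM. All 7 genes of the NADPH oxidase, the complex that makes superoxide, had enough UMIs and 0 passed, at a sum of 1730, 1703 and 1740 CPM. Of 36 S phase genes 0 passed in IR over Control, with 7 above a ratio of 1, and of 38 G2/M genes 0 passed upward and 2 downward. Respiratory chain genes summed to 34054, 33338 and 34441 CPM, with 1 of 76 past the fold in IR over Control. Immediate early genes, which respond to stimulation and to cell handling, summed to 1959, 2014 and 2136 CPM, with 0 of 17 past the fold in IR over Control and 2 of 19 upward in IR+CBD over IR. Target genes of p53, the factor activated by DNA damage, summed to 595, 598 and 596 CPM, and 0 of 6 passed in IR over Control.

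Elane-high cells were then set beside the 3 nearest kinds of cell, each defined by raw UMIs. Cd34-positive cells had at least 10 Mpo UMIs, at least 1 Cd34 UMI, no F13a1 UMI and at most 9 Fcnb UMIs, and numbered 698, 520 and 561. F13a1-positive cells had at least 10 Mpo UMIs, at least 3 F13a1 UMIs, no Cd34 UMI and at most 9 Fcnb UMIs (269, 284 and 411). Fcnb-high cells had at least 10 Fcnb UMIs with no Cd34 or F13a1 UMI and no limit on Mpo (162, 178 and 204). As shares of kept cells they were 6.54%, 5.03% and 5.46%, then 2.52%, 2.75% and 4.00%, then 1.52%, 1.72% and 1.99%. Folds below are given as the range over the 3 libraries and are descriptions, since the cells were chosen on these counts.

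Against Cd34-positive cells, 322 of 10825 genes were at least 1.5 times higher in all 3 libraries and 1600 lower. The C-type lectin Clec4a2 was 7.94 to 11.0 times higher, Prom1 7.16 to 8.25 times and Ly6c2 5.31 to 6.08 times. Elane was 3.31 to 4.29 times higher, but the limits asked for Elane in the Elane-high cells only, so this fold follows from the choice of cells. The early progenitor receptor Flt3 was at 0.0195 to 0.0485 of the Cd34-positive level, and Hmga2, a chromatin protein of early progenitors, at 0.0429 to 0.0687. The stem and multipotent list summed to 366, 338 and 286 CPM, against 1680 to 2013 CPM in Cd34-positive cells.

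Against F13a1-positive cells, 172 of 9564 genes were at least 1.5 times higher in all 3 libraries and 619 lower. Cebpe was 3.13 to 4.96 times higher, Cd63 3.47 to 5.72 times, Pglyrp1 3.18 to 4.45 times and Zbtb16, which encodes the zinc finger protein PLZF, 4.99 to 5.26 times. Irf8 was at 0.0136 to 0.036 and the monocyte chemokine receptor Ccr2 at 0.0281 to 0.0445 of their level. The 2 highest genes against F13a1-positive cells were of other lineages, the mast cell gene Cpa3 (9.68 to 142 times) and the eosinophil gene Prg3 (7.41 to 49.8 times), whose UMIs were concentrated in few cells.

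Against Fcnb-high cells, 3337 of 8008 genes were at least 1.5 times higher in all 3 libraries and 865 lower, the largest number of the 3 sets. Camp alone held 41984 to 46443 CPM and Ngp 30562 to 32089 CPM in Fcnb-high cells. Because CPM are shares of all UMIs, such genes lower the CPM of the others, and the part of this in the counts was not tested. Fkbp11, a chaperone of the secretory pathway, was 36.8 to 48.9 times higher, the glycosyltransferase Galnt6 28.7 to 46.3 times and Ctsg 11.1 to 13.7 times. Chil3 was at 0.00539 to 0.00738, Camp at 0.00816 to 0.0106 and Ngp at 0.0073 to 0.0107 of the Fcnb-high level, and Cebpe at 0.339 to 0.394. The list for folding in the endoplasmic reticulum stood at 16751 to 17526 CPM in Elane-high cells and at 4088 to 4975 CPM in Fcnb-high cells.

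**Figure D4:**
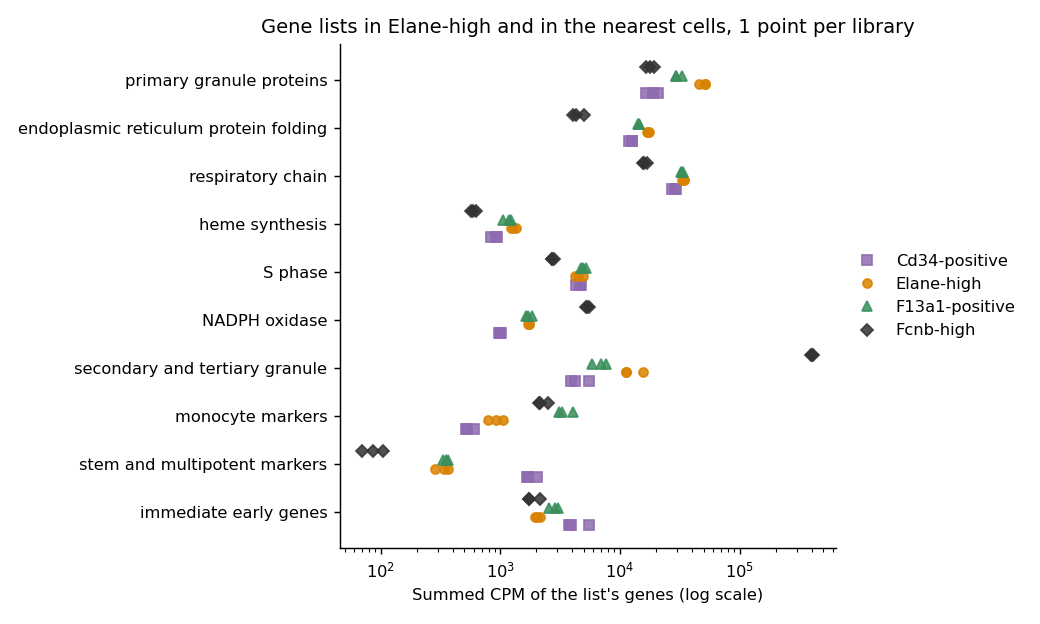
Summed CPM of 10 gene lists on a log axis in Elane-high, Cd34-positive, F13a1-positive and Fcnb-high cells, 1 point per library. Elane-high cells have the highest points for primary granule proteins (45768 to 51530 CPM) and for folding in the endoplasmic reticulum, Cd34-positive cells for stem and multipotent markers, and Fcnb-high cells for secondary and tertiary granule genes. The primary granule list includes Elane and Mpo and the secondary granule list includes Fcnb, all of which were used to choose the cells. The secondary granule list also includes S100a8 and S100a9.

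The Elane-high cells were also ordered by their Fcnb counts, because Fcnb comes with the later, secondary granules. Cells with 0 Fcnb UMIs numbered 82, 81 and 169, cells with 1 to 3 numbered 41, 69 and 148, and cells with 4 to 9 numbered 24, 21 and 40. Fcnb is part of the rule, and deeper cells hold more of its UMIs, but the median depth did not rise from step to step in Control or IR+CBD (25398, 25291 and 20679 UMIs in Control, 17738, 16612.5 and 15786 UMIs in IR+CBD). In IR it was 22864, 20538 and 24118 UMIs.

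Along these steps the secondary and tertiary granule list, which holds Fcnb itself and also S100a8 and S100a9, went from 4569 to 14736 and 32116 CPM in Control, from 3249 to 15199 and 29952 CPM in IR and from 7738 to 19272 and 40094 CPM in IR+CBD. The primary granule list went from 41647 to 50007 and 54495 CPM in Control, from 46667 to 55598 and 57709 CPM in IR and from 45428 to 56699 and 57796 CPM in IR+CBD. The NADPH oxidase list went from 1466 to 1931 and 2420 CPM in Control, from 1411 to 1897 and 2233 CPM in IR and from 1444 to 1925 and 2429 CPM in IR+CBD. All 3 lists were thus higher at each step in all 3 libraries. Sums of the secondary and tertiary list without S100a8 and S100a9 were not taken.

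The stem list was highest at 0 Fcnb UMIs, at 436 CPM in Control, 399 CPM in IR and 347 CPM in IR+CBD. The interferon list was also highest there, at 1460 CPM in Control, 2384 CPM in IR and 1277 CPM in IR+CBD, and stood at 917, 1649 and 973 CPM in the cells with 4 to 9 Fcnb UMIs. IR was above both other libraries at every step. Cebpe was highest in the cells with 4 to 9 Fcnb UMIs, at 276, 237 and 275 CPM.

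**Figure D5:**
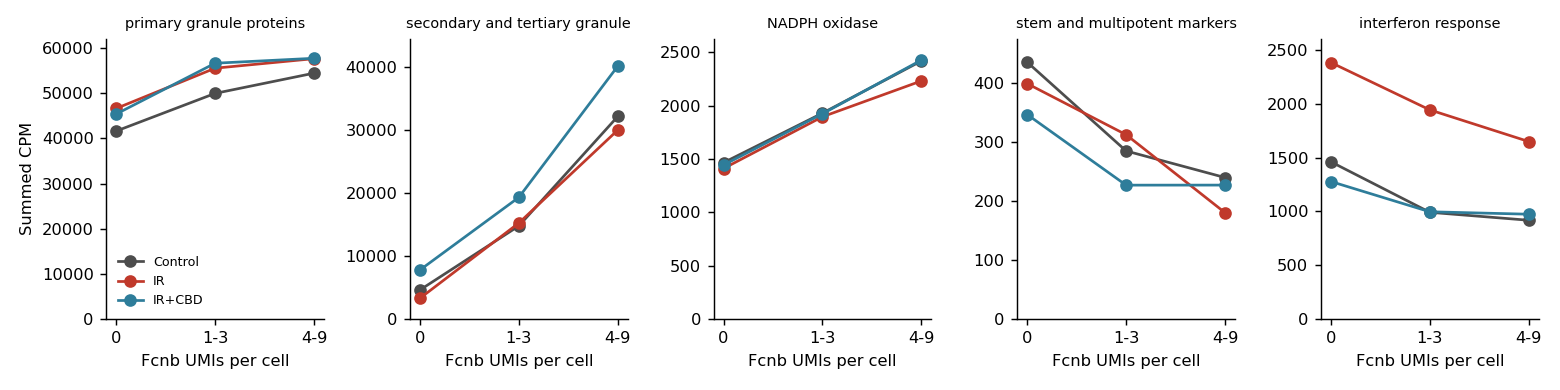
Summed CPM of 5 gene lists in Elane-high cells with 0, 1 to 3 and 4 to 9 Fcnb UMIs, 1 line per library. The primary granule, secondary granule and NADPH oxidase lists are higher at each step, and the interferon list is highest in IR at each step (2384, 1944 and 1649 CPM). The secondary granule list includes Fcnb, S100a8 and S100a9.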

How the data were processed

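The authors deposited, for each of 3 libraries prepared with the 10x Genomics 3′ kit, a table of UMI counts for genes by cells, without normalization. The headers give Cell Ranger 7.0.1, whose default includes intronic reads, and the submitters' processing notes name Cell Ranger 4.0 and GRCm39. All CPM, percentages and ratios were computed from the deposited counts. Only barcodes with at least 200 genes and at most 5% of UMIs from mitochondrial genes were used (10674 of 12200 in the Control library, 10345 of 11951 in the IR library and 10273 of 11884 in the IR+CBD library). UMIs of the chosen cells were summed per gene. Intervals were Clopper-Pearson for shares, Poisson for CPM and conditional binomial for ratios of CPM, all exact, and on the log scale for ratios of shares. No test between conditions was made.

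The members and gene lists were chosen with earlier results of these data known. Named genes were all genes of the granule, transcription factor, receptor, inhibitor and heme lists, the 8 highest and 8 lowest genes per comparison by the bound of the ratio nearest to 1, the 4 genes with most UMIs and the 4 furthest from 1 in other lists, and the 10 highest and 10 lowest against each nearest set, of which the text gives those that carry a result. Doublets were predicted with Scrublet in scanpy 1.11.5 at 0.8% per 1000 cells. Log2 ratios of lists used a pseudocount of 0.5 UMI. Promoters came from a RefSeq table on GRCm38.p6, matched by symbol. The ratios and their intervals were tried on simulated Poisson counts, the kind that the intervals assume. The simulation left out the clustering of UMIs in single cells, so it does not show how the intervals hold for such genes. Python 3.11.15, numpy 2.4.6, scipy 1.17.1, pandas 2.3.3 and matplotlib 3.10.9 were used. Alternatives changed the cell filters, limits, scaling, minimum UMIs and depth. Some genes of the lists are not reported here.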

Additional observations from a re-analysis of the deposited data

Results flagged for a closer look

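Pf4 in Elane-high cells had an IR+CBD over IR ratio of 0.0215 (0.00852 to 0.0451), while in all other cells the ratio was 1.93 (1.86 to 2.01), the opposite direction. The difference was not tested. Of the 193 Pf4 UMIs in IR, 189 were in 1 cell, and without the highest 2% of cells the ratio was 0.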

How the results depend on the processing

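No paired analysis was possible because each condition is 1 library, and no replicate could be left out. Of the share ratios, thinning to 5000 UMIs gave 1.37 for IR+CBD over IR and 1.51 for IR+CBD over Control, and thinning to 10000 UMIs gave 1.62 and 1.39, with 0.863 for IR over Control. Thinning also left out the shallower cells, let in cells that failed the rule at full depth and, at 5000 UMIs, lowered the limits. The part of depth alone was thus not tested.

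The counts of genes past the fold, higher then lower, were 190 and 100 (IR over Control), 56 and 112 (IR+CBD over IR) and 133 and 103 (IR+CBD over Control) at 5000 UMIs, and at 10000 UMIs 124 and 80, then 66 lower for IR+CBD over IR, then 90 and 100. With a minimum of 50 UMIs they were 312 and 225, 230 and 239, and 333 and 236, and with 1 UMI 4377 and 3985, 4959 and 4132, and 5254 and 4059. Means over cells gave 88 higher for IR over Control, 71 lower for IR+CBD over IR and 84 lower for IR+CBD over Control. Without predicted doublets 34 were higher for IR+CBD over Control, with F13a1 at most 1 UMI 48 were higher for IR+CBD over IR and 82 for IR+CBD over Control, with median scaling 30 were lower for IR+CBD over Control, and without the highest 2% of cells 62 were lower for IR+CBD over IR. A lower minimum admits genes with fewer UMIs, and for the other changes the cause was not tested.

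Among ratios past the fold, those that changed direction were S100a6 for IR over Control (1.16 at 5000 UMIs, 1.52 without doublets, 1.83 at 10000 UMIs), Prg2 (IR+CBD over IR 1.05 at 5000 UMIs; IR over Control 0.851 and IR+CBD over Control 0.768 at 15000 CPM of the granule genes, and 0.955 without the highest 2%), Abcb10 (1.01) and Chil3 (1.05, and 1.42 at 10000 UMIs) for IR+CBD over IR, and Ifitm6 for IR+CBD over Control (0.998 at 5000 UMIs, 0.526 by means over cells). So did Retnlg (IR+CBD over IR 0.374 without doublets, IR over Control 1.73 at 10000 UMIs), Hbb-bt (3.21) and Hba-a1 (1.68) for IR+CBD over IR at 15000 CPM, Angpt1 for IR over Control (1.05) and Car1 for IR+CBD over IR (0.983) at 10000 UMIs, and, by means over cells, Lyz2 (0.957 for IR over Control, 0.769 for IR+CBD over Control) and Lcn2 (0.923 for IR+CBD over Control). Ratios within the fold also crossed 1, among them IR over Control of Camp (0.562 to 1.94), Ngp (0.685 to 1.90) and Lcn2 (0.777 to 1.49) and IR+CBD over Control of Retnlg (0.347 to 2.03). The cause was not tested. The median log2 ratio of the interferon list ran from 0.63 to 1.49 for IR over Control and from -1.28 to -0.76 for IR+CBD over IR over 16 settings. Most of these settings kept the UMI minimum, which some of the genes reached mainly through IR.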
